A study of Mus musculus with 6 samples.

Results

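The transcription factor MYC and the genes that build ribosomes were examined in sorted blood vessel endothelium of mouse gut, after deletion of Apc in the neighbouring epithelium. The set was a list of 38 gene symbols, each represented by the probe set that the platform annotation assigns to that symbol alone, with the highest mean over the 6 arrays where there were several. Of the 38 genes, 35 were measured in this way, out of 22180 genes with such a probe set, and all 35 lay above background on every array. The other 3 were not analysed here, Fbl and Tsr1 because their probe sets also carry another gene's symbol, and Npm3 because the annotation used here pairs no probe set with it. Background was a log2 level of 4.12, which 90% of 1432 chemosensory receptor genes (olfactory, vomeronasal, taste) did not reach, and 15287 genes had a mean above it and were tested.

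The study has 6 arrays from adult mice of a mixed C57BL/6 x 129 background. The 3 knockout mice carried Apcfl//fl with Villin-CreERT2, a tamoxifen-inducible Cre whose villin promoter works in gut epithelium and not in endothelium. The 3 control mice are labelled WT, Apcfl//fl, and their labels name no Cre. Read in this way, both groups have the floxed allele. Both groups received tamoxifen under the skin daily for 5 days, and the gut was taken on day 6. After collagenase digestion, live single cells with CD31 and without CD45, EpCAM or gp38 were sorted, and their RNA was amplified and hybridised to Affymetrix Mouse Gene 2.0 ST arrays, 1 biological replicate to an array. The comparison asks how this programme in endothelium differs when the epithelium beside it has lost Apc, a brake on Wnt signalling.

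MYC binds DNA as a pair with MAX and raises the transcription of genes for cell growth, many of which serve ribosome production. MXD and MXI proteins compete for MAX and oppose MYC. In the nucleolus, RNA polymerase I makes a long precursor RNA, small nucleolar ribonucleoproteins (snoRNPs) modify it, and large assembly complexes cut and fold it into the small and large ribosomal subunits. In intestinal epithelium Myc is a well known target of Wnt signalling, and in endothelium MYC is known for a part in the growth of sprouting vessels.

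The DNA motif most closely tied to MYC and MAX is the E-box CACGTG, which reads the same on both strands. RefSeq promoter windows (GRCm38.p6, 250 bases before to 50 bases after the start of a gene) were matched for 31 of the 38 genes, and 8 of the 31 (25.8%) held CACGTG, against 8.91% of 17492 protein-coding genes in the same table. The motif lay after the start in 5 of the 31 (16.1%), against 1.32% of protein-coding genes. Before the start it lay in 2 of the 31 (6.45%), against 7.61% of protein-coding genes. The looser form CANNTG, which includes CACGTG, was in 64.5% of the 31 and in 72.1% of protein-coding genes. The lines below show the motif in capitals with up to 10 bases on each side, on the strand of the gene, for all 8, since these are the members whose start regions carry the letters that MYC and MAX are known to bind. A match is a description of the letters and not of binding in these cells. Myc itself had no window in the table, and whether members with the motif changed more than the others was not tested.
Wdr43, chr17:71616222-71616247, plus strand: cccgggcgaaCACGTGgctgccgcgg
Mybbp1a, chr11:72441357-72441376, plus strand: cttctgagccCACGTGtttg
Pes1, chr11:3963967-3963992, plus strand: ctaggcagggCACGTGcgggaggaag
Utp20, chr10:88826765-88826787, minus strand: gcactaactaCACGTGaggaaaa
Tsr1, chr11:74898094-74898119, plus strand: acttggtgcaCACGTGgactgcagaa
Max, chr12:76962236-76962261, minus strand: tgagcccggtCACGTGttagggggcc
Mxd4, chr5:34187914-34187939, minus strand: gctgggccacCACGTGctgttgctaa
Nop2, chr6:125131813-125131838, plus strand: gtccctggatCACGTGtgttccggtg
In the first 5 of these lines the motif lies after the start of the gene, within the first 50 transcribed bases of the table, in Max it spans the start, and in Mxd4 and Nop2 it begins 219 and 60 bases before the start. The 250 bases before the start are shown whole for the pair whose motif lies there, the antagonist gene Mxd4 and the rRNA methyltransferase gene Nop2.
Mxd4, chr5:34187711-34187960, minus strand: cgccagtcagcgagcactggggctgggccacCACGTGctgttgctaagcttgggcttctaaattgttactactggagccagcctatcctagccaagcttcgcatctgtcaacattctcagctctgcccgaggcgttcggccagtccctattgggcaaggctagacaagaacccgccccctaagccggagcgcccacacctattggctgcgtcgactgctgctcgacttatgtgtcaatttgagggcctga
Nop2, chr6:125131633-125131882, plus strand: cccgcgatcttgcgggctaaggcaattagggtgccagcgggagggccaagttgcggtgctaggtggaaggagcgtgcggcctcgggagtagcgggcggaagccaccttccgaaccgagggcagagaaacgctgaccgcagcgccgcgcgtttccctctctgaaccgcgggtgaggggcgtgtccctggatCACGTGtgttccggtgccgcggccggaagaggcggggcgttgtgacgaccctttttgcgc

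Levels are log2 values from RMA (robust multi-array average, a method that corrects background, normalizes arrays to a shared distribution and summarises probes). Changes are knockout minus control, ± after a change is its standard error in limma, and an adjusted p under 0.05 over all 15287 genes was the threshold. In the whole series 399 genes passed (2.61% of those tested), 173 higher (1.13%) and 226 lower (1.48%) in the knockout. The array medians over all 41345 probe sets lay between 4.77 and 4.81. All 12 endothelial markers were above background, Cdh5 at 12.0 in both groups, and they moved in both directions. Cldn5, a tight junction protein, fell by 1.28 ± 0.19 (adjusted p = 0.0137), while Plvap, Kdr, Egfl7 and Esam had changes of 0.21 to 0.35 that did not pass (adjusted p from 0.0527 to 0.152). Epithelial RNA differed between arrays, with Epcam at 7.20 and 6.24 in controls 2 and 3 and below background on the other 4 arrays.

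None of the 35 genes passed the threshold in limma on its own, and the smallest adjusted p was 0.107. The changes nevertheless lay mostly above 0, with 31 of 35 positive (88.6%, against 46.7% of all genes tested) and a median of 0.18, against -0.02 for all genes. Members varied together across arrays, with a median pairwise correlation of 0.35 over the 6 arrays and 0.26 within groups. They are thus not 35 separate observations. At an unadjusted p under 0.05 there were 8 members, all higher in the knockout, against 7.2% of all genes higher at that level. Every knockout array lay above every control array for 8 of 35 members (22.9%, against 9.79% of all genes), and every knockout array lay below every control array for Mycn alone (against 12.3% of all genes). The 35 intervals at 95% lay between -0.58 and 0.99, so that none reached a 2-fold change in either direction, while 8 lay above 0, 0 below it and 27 spanned it. Since the sort gives bulk RNA, a change in the cells present and a change in RNA per cell cannot be told apart.

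**Figure D1:**
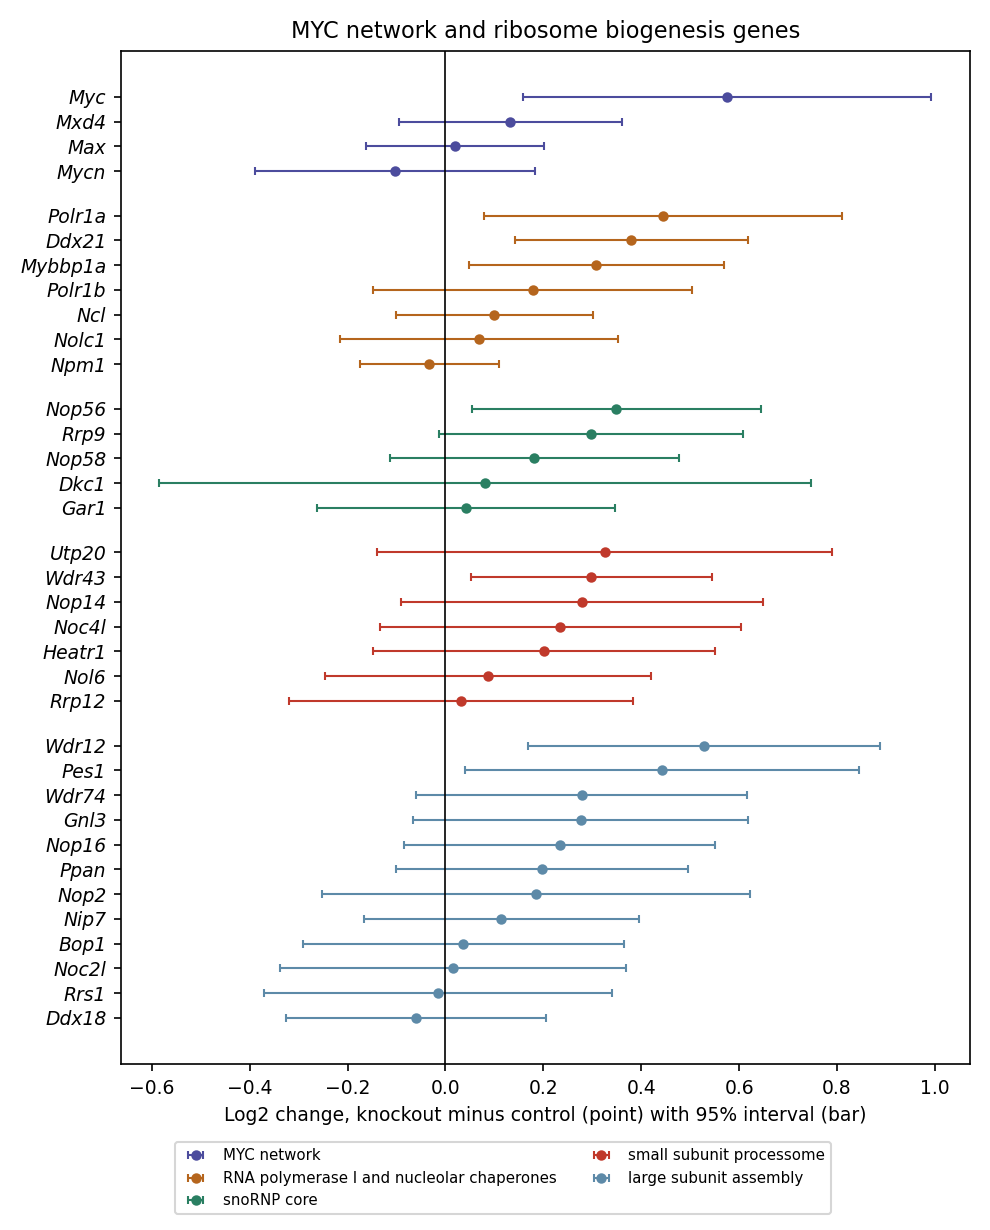
Log2 change of each of the 35 measured genes, knockout minus control, on the horizontal axis (points), with bars for the 95% interval of the limma fit, and genes grouped and coloured by role. Most points lie to the right of 0, 8 bars lie wholly above 0 and none lies wholly below.

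Among the transcription factors, Myc differed most between the groups as fitted, and its rank among all members was not stable across the alternatives. Its log2 level was 7.65, 8.005 and 8.06 on knockout arrays 1 to 3 and 7.52, 6.93 and 7.54 on control arrays 1 to 3. The groups did not overlap, but knockout 1 lay close above controls 1 and 3, and control 2 was the lowest array. The change was 0.58 ± 0.18, a ratio of 1.49, and did not pass (adjusted p = 0.156). Without control 2 the change was 0.38, against control 1 alone 0.39, and with the mean of the epithelial and enterocyte markers as a covariate 0.14 (adjusted p = 0.976). That covariate itself separates the groups.

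The paralog Mycn, which is known mainly from embryonic and neural tissue, was nearer to background. It measured 4.97, 5.00 and 5.00 in the knockout and 5.06, 5.04 and 5.17 in the control, with knockout arrays lower by a narrow margin (-0.10 ± 0.13, adjusted p = 0.745). Max, the partner of MYC, was at 9.69, 9.78 and 9.87 in the knockout and at 9.66, 9.79 and 9.84 in the control. Its groups overlapped fully, and the interval of the change ran from -0.16 to 0.20. Mxd4, an antagonist of MYC, stood at 9.30, 9.59 and 9.24 in the knockout and 9.19, 9.30 and 9.24 in the control, where only knockout 2 lay apart (0.13 ± 0.10, adjusted p = 0.574).

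Of the 7 measured genes for RNA polymerase I and nucleolar helper proteins, 6 had a positive change and 3 were at an unadjusted p under 0.05. Ddx21, an RNA helicase that works on both RNA polymerase I and II transcripts, had the smallest p of all members. Its levels were 8.81, 8.64 and 8.80 in the knockout and 8.27, 8.54 and 8.29 in the control. Control 2 came near to knockout 2, and the groups did not overlap (0.38 ± 0.11, adjusted p = 0.107). A second Ddx21 probe set went the same way, with means of 7.96 in the knockout and 7.65 in the control.

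Polr1a, the largest catalytic subunit of RNA polymerase I, measured 7.27, 6.85 and 7.02 in the knockout and 6.46, 6.86 and 6.49 in the control. Control 2 lay level with knockout 2, so the groups overlapped (0.44 ± 0.16, adjusted p = 0.208). The other catalytic subunit gene, Polr1b, had a change of 0.18 ± 0.14 with overlapping groups (adjusted p = 0.6). Mybbp1a, for a nucleolar MYB-binding protein, was at 7.81, 7.66 and 7.90 in the knockout and 7.37, 7.60 and 7.47 in the control. All knockout arrays were above all control arrays, with control 2 again the nearest (0.31 ± 0.11, adjusted p = 0.218).

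The genes of the other nucleolar proteins measured had smaller changes, with intervals that spanned 0. Their difference from the genes above was not tested. Npm1, the nucleolar chaperone nucleophosmin, was at 10.80, 10.65 and 10.81 in the knockout and at 10.83, 10.77 and 10.76 in the control (-0.03 ± 0.063, interval -0.18 to 0.11). Its second probe set had means of 7.15 and 6.92, a difference of the opposite sign. Npm1 has processed copies in the genome that can share probe sequence, so its value is uncertain. Ncl, for nucleolin, had a change of 0.10 ± 0.089, and Nolc1, a snoRNP chaperone, one of 0.07 ± 0.13, both with overlapping groups.

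The snoRNP core had 5 measured genes, all with a positive change. Nop56, a scaffold protein of the snoRNPs that guide 2′-O-methylation, measured 8.33, 8.14 and 8.64 in the knockout and 8.08, 7.98 and 7.996 in the control. The control arrays lay close together and knockout 3 was far the highest (0.35 ± 0.13, adjusted p = 0.22). Of its other probe sets, 1 had a change of -0.19 and 1 a change of 0.58, so the probe sets do not agree in sign. Rrp9, a U3 snoRNP protein, was at 6.66, 6.72 and 7.04 against 6.52, 6.53 and 6.48, without overlap (0.30 ± 0.14, adjusted p = 0.328).

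The partner scaffold Nop58 had a change of 0.18 ± 0.13 (adjusted p = 0.552). Dkc1, the pseudouridine synthase dyskerin, was the least even member, at 5.79, 5.64 and 6.46 in the knockout and 5.48, 6.49 and 5.67 in the control. Knockout 3 and control 2 were alike and high, and the interval of -0.58 to 0.75 leaves its change undetermined. Gar1, of the same particle, had a change of 0.04 ± 0.13.

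**Figure D2:**
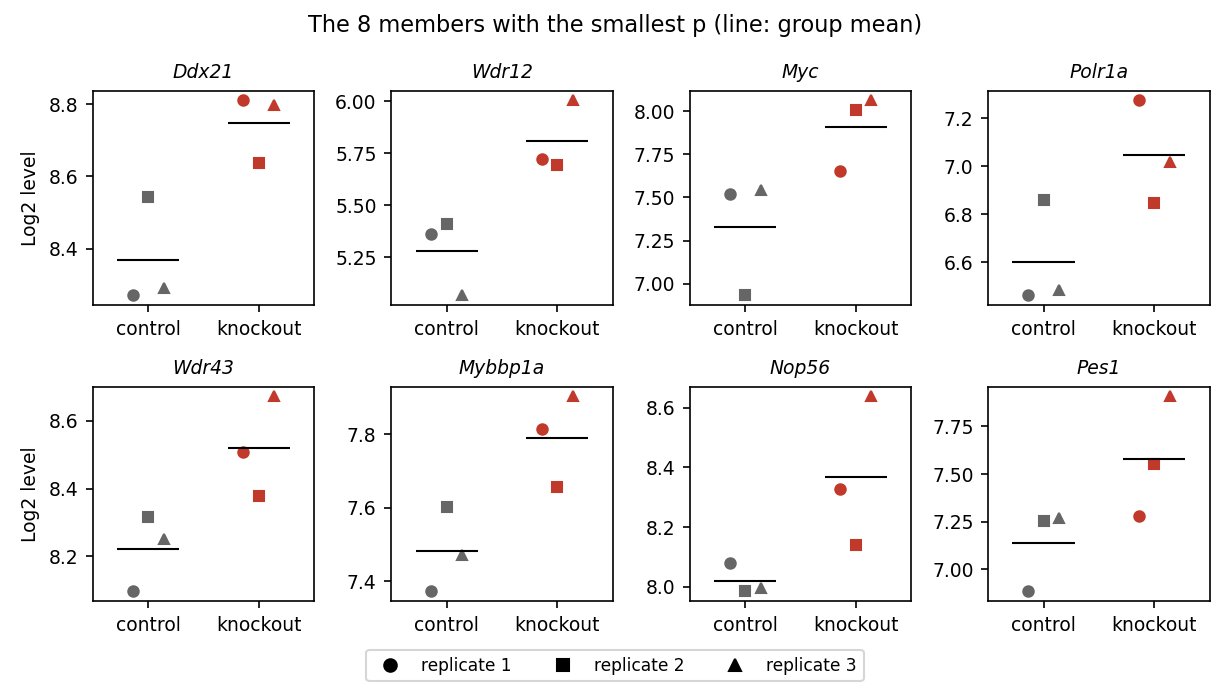
Log2 level (vertical axis, a separate range for each gene) of the 8 members with the smallest p on the 3 control and 3 knockout arrays, with the symbol shape for the replicate number and a line at the group mean. The groups are separate in 7 of the 8, and in Polr1a control 2 reaches the level of knockout 2.

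The small subunit processome, which folds and cuts the precursor on the way to the small subunit, had 7 measured members, and all 7 changes were positive with a median of 0.24. Wdr43, a subunit that joins early, was at 8.51, 8.38 and 8.67 in the knockout and 8.10, 8.32 and 8.25 in the control. No knockout array fell among the controls (0.30 ± 0.11, adjusted p = 0.209). Utp20 (0.33 ± 0.21), Nop14 (0.28 ± 0.16), Noc4l (0.24 ± 0.16) and Heatr1 (0.20 ± 0.15) had overlapping groups and adjusted p-values from 0.452 to 0.576. Nol6 (0.09 ± 0.15) and the late export factor gene Rrp12 (0.03 ± 0.16) were near 0.

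Large subunit assembly had 12 measured members, 10 with a positive change and a median of 0.19. PES1, BOP1 and WDR12 form the PeBoW complex, which is needed for large subunit maturation. Wdr12 measured 5.72, 5.69 and 6.01 in the knockout and 5.36, 5.41 and 5.07 in the control. These groups were well apart (0.53 ± 0.16, a ratio of 1.44, adjusted p = 0.131). Pes1 was at 7.28, 7.55 and 7.91 in the knockout and 6.88, 7.26 and 7.27 in the control. Knockout 1 exceeded controls 2 and 3 only narrowly (0.44 ± 0.18, adjusted p = 0.254).

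Bop1, the remaining PeBoW gene, was at 6.16, 6.37 and 6.30 in the knockout and 6.37, 6.33 and 6.02 in the control. Its groups overlapped and its change was 0.04 ± 0.14, with an interval of -0.29 to 0.36. The difference between Bop1 and its complex partners was not tested. Wdr74, which acts in late nucleolar steps, was at 7.77, 7.75 and 8.08 against 7.63, 7.80 and 7.33 (0.28 ± 0.15, adjusted p = 0.404).

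Gnl3, for the nucleolar GTPase nucleostemin, had a change of 0.28 ± 0.15, Nop16 one of 0.23 ± 0.14, Ppan one of 0.20 ± 0.13, Nop2 one of 0.18 ± 0.19 and Nip7 one of 0.11 ± 0.12, all with overlapping groups. A second Ppan probe set had a change of 0.70. Other members lay around 0. Noc2l was at 7.001, 7.31 and 7.53 in the knockout and 7.30, 7.09 and 7.41 in the control (0.02 ± 0.16). Rrs1, which helps load the 5S ribonucleoprotein, was at 5.84, 5.77 and 6.17 against 5.78, 6.02 and 6.02 (-0.01 ± 0.16). Ddx18, an RNA helicase, was at 8.55, 8.79 and 8.97 against 8.72, 8.93 and 8.85 (-0.06 ± 0.12). In each of these the knockout arrays spread across the control range.

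The arrays did not contribute evenly. The mean over the 35 members lay 0.13, 0.12 and 0.33 above the control mean on knockout arrays 1 to 3, and at -0.03, 0.08 and -0.05 on control arrays 1 to 3. Knockout 3 was the highest of the 6 arrays for 22 of 35 members, and control 1 and control 3 were the lowest for 12 and 13. Without knockout 3, 27 of 35 changes were positive, the median was 0.14 and 4 members were at an unadjusted p under 0.05. That number was 4 without control 1 and 5 without control 3, against 8 with all arrays.

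**Figure D3:**
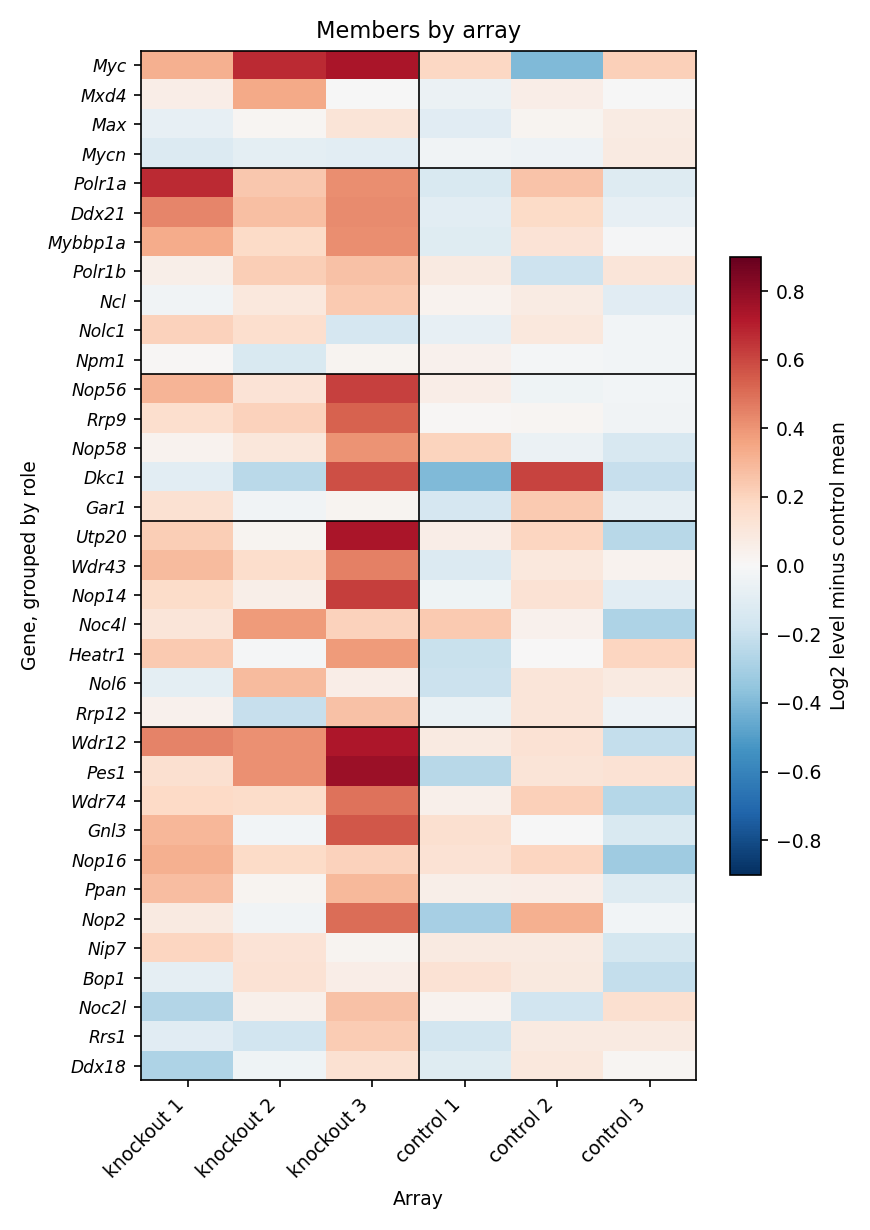
Log2 level of each member (rows, grouped by role) on each array (columns) minus the gene's control mean, with red above and blue below it. The column of knockout 3 is the reddest, and control 2 has a number of red cells among the controls.

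Markers of other cells moved with the groups and with single arrays. All 12 pan-epithelial markers above background had a negative change, their mean level running from 4.95 to 5.30 in the knockout and from 5.63 to 7.10 in the control, and 3 passed as lower, Vil1, Lgals4 and Krt20. All 14 enterocyte markers had a negative change and 12 passed as lower (means of 5.22 to 5.60 and 6.97 to 8.70). Fabp2 changed by -3.29 ± 0.38 and Fabp1 by -3.57 ± 0.36. Control 2, the highest control for the members, was also the highest for both lists. With the mean of both marker lists as a covariate, 27 of 35 member changes were positive with a median of 0.24, 2 members instead of 8 were at an unadjusted p under 0.05, and 4 genes in all were called instead of 399. Against control 1 alone, the control with the lowest mean of these markers, 29 of 35 were positive with a median of 0.18. Both marker means were lower on every knockout array than on every control array. The covariate thus largely follows the group, and the fit with it cannot tell epithelial RNA apart from the knockout. The part of epithelial RNA in the member changes was not tested.

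Crypt stem and progenitor markers, of cells in which Apc loss is known to raise Myc, were mostly dim in both groups. The brightest were Slc12a2, an ion transporter, at group means of 8.04 in the knockout and 8.11 in the control, Prom1 at 5.79 and 6.23 and Axin2, a Wnt target, at 5.41 and 5.49, all with overlapping groups. The mean over 13 measured genes was 5.12 to 5.15 in the knockout and 5.22 to 5.26 in the control, 0 were called by limma (4 at an unadjusted p under 0.05, 1 of them higher), and Olfm4 was not above background. Lgr5 was at 4.83, 4.76 and 5.23 in the knockout and 5.04, 4.53 and 4.84 in the control. Of 13 mural cell markers 11 had a negative change, and 6 passed as lower and 1 as higher. Their means were 7.94 to 8.23 in the knockout and 8.53 to 8.88 in the control. Rgs5 changed by -0.70 ± 0.13 and Acta2 by -0.82 ± 0.15, while Mcam, which endothelium also expresses, rose by 0.51 ± 0.074.

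Leukocyte and other lists varied more by array. B and plasma cell markers (5 measured) had means of 7.01, 7.12 and 7.82 in the knockout and 6.997, 6.95 and 7.24 in the control, so that knockout 3 was highest there as it was for the members. The mean of lymphatic markers (6 measured, 2 higher, Lyve1 and Flt4) was also highest in knockout 3, at 6.33. It was 5.89 and 5.72 in the other knockouts and 5.47 to 5.85 in the controls. Flt4 was the brightest of the 6, at group means of 8.77 in the knockout and 8.12 in the control, while Prox1 lay near background (4.42 and 4.37). Prox1 (0.06 ± 0.25), Reln (0.18 ± 0.23), Mmrn1 (0.32 ± 0.62) and Pdpn (-0.30 ± 0.18) did not pass. Of these, Mmrn1 was at 5.27, 3.72 and 6.42 on knockout arrays 1 to 3. T and NK cell markers (9 measured, 0 called by limma, 5 at an unadjusted p under 0.05) ran from 4.42 to 4.71 in the knockout and 4.95 to 5.74 in the control. Macrophage markers (10 measured, 0 called by limma, 0 at an unadjusted p under 0.05) ran from 5.99 to 6.38 and from 5.81 to 6.17, and fibroblast markers (9 measured, Col1a2 lower) from 6.04 to 6.48 and from 6.41 to 6.76. The part of these cells in the member changes was not tested.

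Proliferation genes were also shifted upward, though the arrays with the highest list mean differed. Of 16 measured, 15 had a positive change with a median of 0.31, 0 were called by limma and 5 were at an unadjusted p under 0.05. Their mean lay 0.43, 0.36 and 0.10 above the control mean on knockout arrays 1 to 3. Knockout 3, the highest array for the members, thus had the lowest knockout mean for this list, but the genes differed. Mcm3 (7.12, 7.13 and 7.23 on knockout arrays 1 to 3) and Pcna (10.14, 10.27 and 10.30) were highest of the knockouts in knockout 3. Top2a (5.74, 5.83 and 4.77) and Rrm2 (5.48, 5.82 and 4.42) were lowest there. Mki67, a marker of cycling cells, was at 6.25, 6.13 and 5.30 in the knockout and 5.48, 5.47 and 5.32 in the control, so that knockout 3 lay below all 3 controls.

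The rest of the ribosome assembly pathway, 108 measured genes that are not members, leaned the same way by less. Of these, 76 had a positive change, the median was 0.11, 16 were higher and 4 lower at an unadjusted p under 0.05, and 0 were called by limma. Among 46 large subunit assembly genes 37 were positive with a median of 0.16, led by Nifk, a nucleolar protein that binds Ki-67. Nifk was at 7.45, 7.29 and 7.31 in the knockout and 6.56, 7.02 and 6.89 in the control (0.53 ± 0.14, adjusted p = 0.0988). Its groups did not overlap.

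Among 40 further small subunit genes 29 were positive with a median of 0.11, and Tbl3, a processome subunit, had the smallest p. It measured 6.64, 6.77 and 6.74 in the knockout and 6.18, 6.30 and 6.41 in the control (0.42 ± 0.13, adjusted p = 0.125). In RNA polymerase I machinery, 5 of 10 changes were positive with a median of -0.0034, while the mean over the list was higher by 0.07, from 7.125 to 7.145 on the knockout arrays and from 7.047 to 7.086 on the controls. The smallest p there was that of Taf1d, of the promoter selectivity factor, at 0.46 ± 0.19 (adjusted p = 0.259). In snoRNP assembly, 5 of 12 were positive with a median of -0.05, and Nop10, a small H/ACA protein, was at -0.31 ± 0.11 (adjusted p = 0.219).

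RNA polymerase III machinery, which makes 5S rRNA and tRNA, had 15 of 19 changes positive, a median of 0.13 and 0 at an unadjusted p under 0.05, with Polr3c at 0.43 ± 0.21 (adjusted p = 0.352). MYC network partners outside the list were near 0 (median -0.02, 3 of 8 positive). The largest change there was in Mxi1, an antagonist of MYC, at 8.95, 9.08 and 8.51 in the knockout and 9.62, 9.13 and 9.56 in the control (-0.59 ± 0.17, adjusted p = 0.116). All knockout arrays lay below all controls, knockout 2 and control 2 being close.

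**Figure D4:**
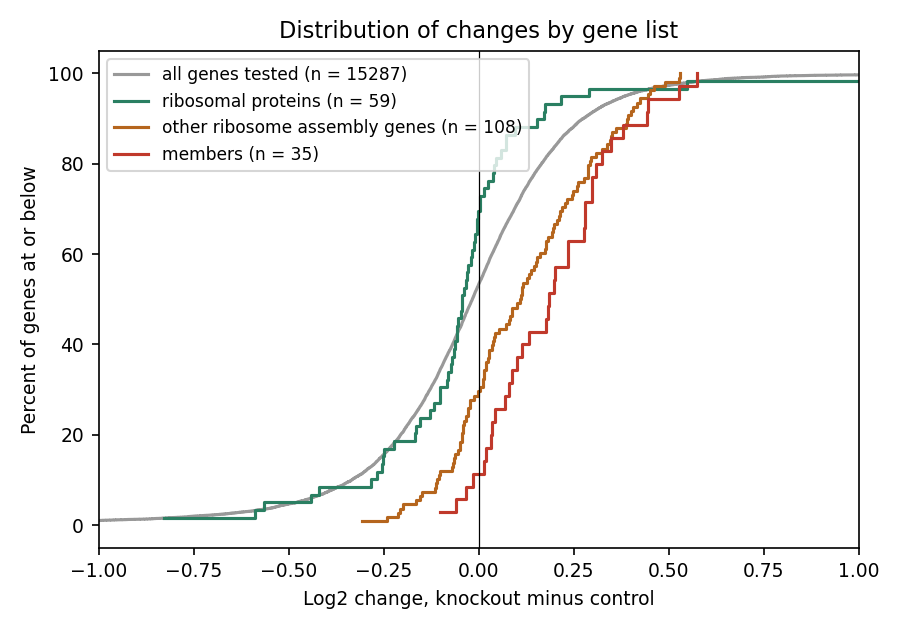
Cumulative distribution of log2 changes, knockout minus control (horizontal axis, drawn from -1 to 1, with changes outside it not shown), for all 15287 genes tested, 59 ribosomal protein genes, 108 other ribosome assembly genes and the 35 members. The curve of the members lies farthest to the right around its median of 0.18, and that of the ribosomal proteins crosses 50% below 0.

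Ribosomal protein genes, the structural products that assembly factors put together, did not share the shift. Of 79 listed genes 59 were measured. Of these, 18 had a positive change and 41 a negative one, with a median of -0.04, and 1 passed as higher and 3 as lower. At an unadjusted p under 0.05 there were 14, of which 2 were higher. Every knockout array lay below every control array for 19 of the 59 (against 12.3% of all genes), and above for 4 (against 9.79%). Rps3a1 was at 11.19, 10.95 and 10.93 in the knockout and 11.93, 11.79 and 11.84 in the control (-0.83 ± 0.076, adjusted p = 0.00214). Rpl9 changed by -0.59 ± 0.11 (adjusted p = 0.0268) and Rps24 by -0.27 ± 0.048 (adjusted p = 0.0266). Rpl34 was at 7.73, 7.97 and 7.75 in the knockout and 6.19, 6.32 and 7.02 in the control (1.30 ± 0.21, adjusted p = 0.0167).

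These 4 values are uncertain, because ribosomal protein genes have many near-identical processed copies that can share probes. With the mean over all probe sets of a gene, the calls of Rps3a1 (-0.20, adjusted p = 0.499), Rpl9 (-0.16, adjusted p = 0.515) and Rps24 (-0.21, adjusted p = 0.196) were lost. Over all alternatives the adjusted p ran from 0.001 to 0.499 for Rps3a1, from 0.019 to 0.515 for Rpl9, from 0.0198 to 0.842 for Rps24 and from 0.00578 to 0.299 for Rpl34. Leaving out any one array ended the call of Rps24, any one but knockout 2 that of Rpl9, and any one knockout array or control 2 that of Rpl34.

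Of 19 other MYC target genes, chosen for growth and metabolism rather than the nucleolus, 2 passed as higher and 0 as lower. A positive change was seen in 13 and a negative one in 6, with a median of 0.11. At an unadjusted p under 0.05 there were 6, of which 5 were higher. Nme1, a nucleoside diphosphate kinase, was at 10.7, 10.6 and 10.6 in the knockout and 10.1, 10.2 and 9.86 in the control, clear of each other (0.59 ± 0.088, a ratio of 1.50, adjusted p = 0.0137). Srm, for spermidine synthase of the polyamine pathway, was at 8.10, 8.06 and 7.96 against 6.98, 7.33 and 7.45 (0.79 ± 0.14, a ratio of 1.73, adjusted p = 0.0231). Both rose on all 3 knockout arrays by much the same amount, with no lead of knockout 3. Without the variance trend neither passed (adjusted p = 0.07 for Nme1 and 0.0566 for Srm). Over all alternatives the adjusted p ran from 0.00964 to 0.518 for Nme1 and from 0.0166 to 0.199 for Srm. The call of Nme1 ended without knockout 1 and without knockout 3, and that of Srm without any one knockout array and without control 2.

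**Figure D5:**
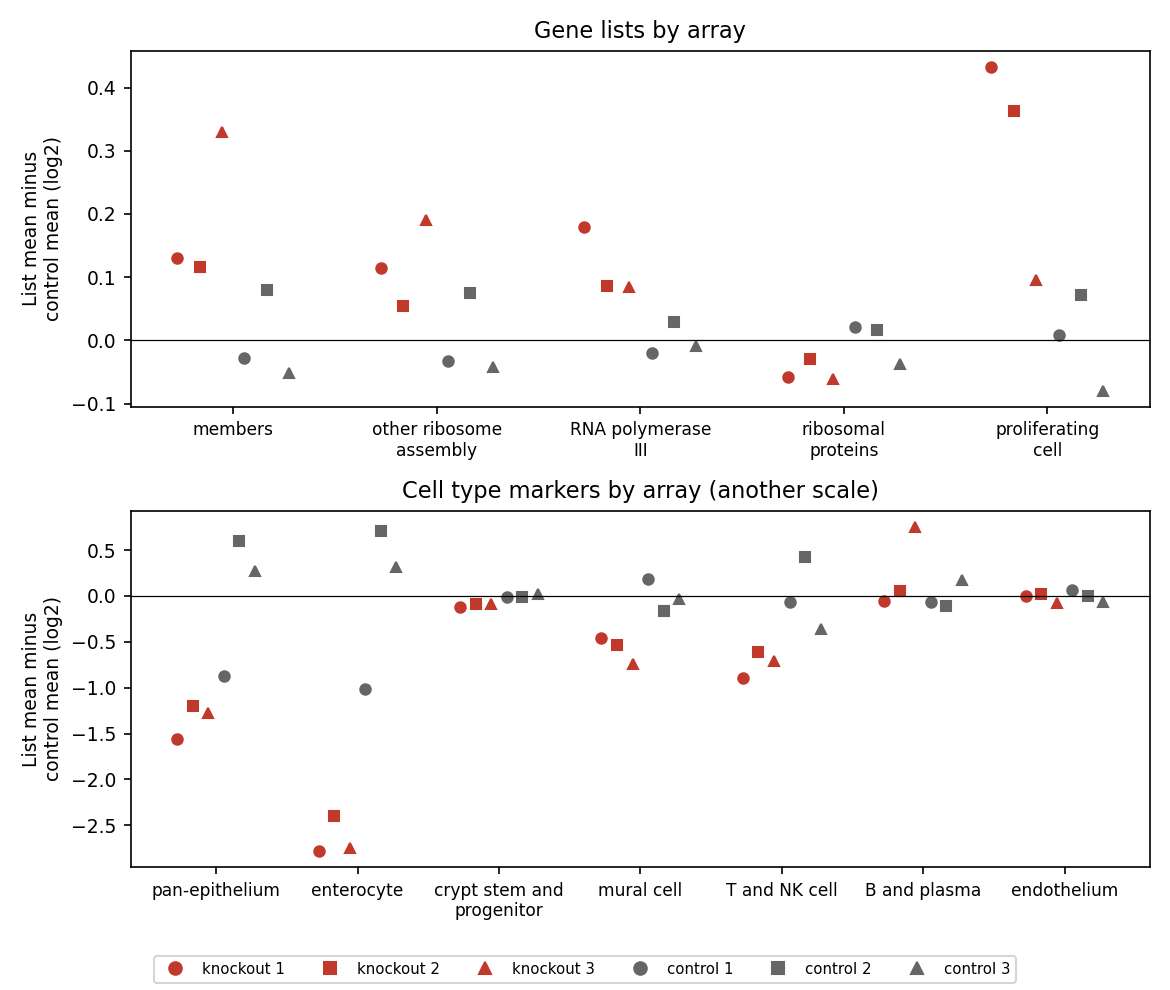
Mean log2 level of each gene list on each array minus its control mean (vertical axis), for the members and related gene lists above and for cell type markers below on another scale, with knockout arrays in red, controls in grey and the symbol shape for the replicate number. Knockout 3 is highest for the members and lowest of the knockouts for proliferation, and the enterocyte markers lie between -2.78 and -2.40 in the knockout.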

How the data were processed

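The deposited values are log2 levels per probe set, made by the authors with RMA in the oligo package, per the submitters' processing notes, with versions not given in the sources used here. Symbols came from the platform annotation: of 41345 probe sets, 23521 carried 1 symbol, 1814 several and 16010 none, and the last 2 kinds were left out. The fit used limma 3.58.1 in R 4.3.3 (two-sided, moderated with a mean-variance trend, Benjamini-Hochberg adjustment over 15287 genes), and the procedure was tested on simulated data. The simulation planted changes in fewer genes than were called in the real data, so its shares may differ from those of the fit. In the simulated data, 20.6% of log2 changes of 0.5 and 0.6% of changes of 0.25 were called. A member change of that size is thus not shown to be absent where it was not called. Promoter letters were read with Python 3.11.15. Arrays have no read depth, and their number limits the precision. Nothing in the labels says more than that replicates are biological. Same-numbered arrays did not deviate together (correlations of -0.02, -0.01 and 0.04 over genes), so no pairing was used.

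Members and gene lists were chosen with earlier results of these data known, and give no independent support to them. Named genes were the 4 of the MYC network, the 10 members with the smallest p and those with the most negative change or nearest 0. Of each pathway list they were the called genes or else the 1 with the smallest p. Of the marker lists only some of the brightest genes were named. Markers beyond these, and further members, were named after their values were seen.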

Additional observations from a re-analysis of the deposited data

How the results depend on the processing

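Across 19 alternatives (filter, normalization, probe set choice, variance model, array weights, threshold, replicate block, an epithelial covariate, control 1 alone and each array left out), 0 of 35 members were called (of 34 with the stricter filter), with limma throughout. The count of positive members lay between 27 and 33 and their median change between 0.13 and 0.24, and leaving out an array gave 27 to 31 and 0.13 to 0.24. With the replicate block 0 members and 394 genes in all were called. The count of 399 called genes became 139 without the variance trend, 768 at a threshold of 0.1, 52 against control 1 alone and 4 with the epithelial covariate, and 91 to 379 with an array left out.

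Some members turned sign, none called in either setting, and the cause was not tested. Not all of them were near 0, since Gnl3 was at 0.277, Noc4l at 0.235, Nop58 at 0.181 and Polr1b at 0.178 in the reported fit. With quantile normalization repeated, Rrs1 was at 0.0356. With the mean over probe sets Npm1 was at 0.0988, and with the probe set of largest variance Npm1 was at 0.23 and Ddx18 at 0.0373. With the epithelial covariate, Bop1 was at -0.0932, Ddx18 at 0.224, Gnl3 at -0.0753, Noc2l at -0.0624, Noc4l at -0.0807, Nop58 at -0.18, Polr1b at -0.0109 and Rrs1 at 0.272, and 2 members were at an unadjusted p under 0.05. Against control 1 alone, Bop1 was at -0.0949, Ddx18 at 0.0507, Noc2l at -0.0166, Noc4l at -0.00396, Nop58 at -0.0161 and Rrs1 at 0.148. With an array left out, the change ran from -0.0722 to 0.102 for Bop1, from -0.158 to 0.0489 for Ddx18, from -0.167 to 0.386 for Dkc1, from -0.0327 to 0.158 for Gar1, from -0.0317 to 0.0654 for Max and from -0.109 to 0.154 for Noc2l. It ran from -0.0131 to 0.172 for Nol6, from -0.00143 to 0.178 for Nolc1, from -0.0625 to 0.0192 for Npm1, from -0.0836 to 0.151 for Rrp12 and from -0.135 to 0.0632 for Rrs1. The other 24 measured members kept their sign with each array left out.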
